A study of Mus musculus with 9 samples.

Results

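The 38 genes described here code for glucose transporters, for the enzymes of glycolysis and their regulators, for the proteins that make and move lactate, and for enzymes that pass pyruvate to the mitochondria or store glucose. They were chosen by gene symbol, and all 38 were found among the 53170 distinct gene names of the deposited table. Polyadenylated RNA was sequenced from RAW264.7 cells, a transformed mouse macrophage-like line of wild-type genotype, which was the only cell line of the study. Every culture was grown in αMEM medium with fetal bovine serum. The control group was a blank control, the BMC group was cultured on a membrane that the labels call BMC, and the BMC+LIPUS group was cultured on that membrane and stimulated by low-intensity pulsed ultrasound (LIPUS). Each of the 3 groups had 3 libraries, no group had ultrasound without the membrane, and the labels give no time, ultrasound setting or spelled-out name of the membrane. The labels do not say whether a group's 3 libraries were separate cultures, so the spread behind each p-value may be technical.

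Glucose enters a cell through transporters of the GLUT family and is trapped by hexokinase. Phosphofructokinase commits the sugar to glycolysis, the later enzymes split it and turn it into pyruvate, and lactate dehydrogenase turns pyruvate into lactate, which leaves through monocarboxylate transporters. Many steps can be carried by several paralogous enzymes (isozymes), encoded by separate genes, that differ in their regulation. Macrophages stimulated by microbial products are known for a high rate of glycolysis. The transcription factor HIF-1 switches on many of these genes when its alpha subunit is stable. ACGTG with flanking bases is 1 form of the letters it binds. The table has 1 value per gene, so splice isoforms of a gene, such as the muscle forms of pyruvate kinase, could not be told apart. The switches described here are between paralogs.

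The libraries held 12675541 to 16574453 counts on named genes, and the 38 genes together took 1.36% to 1.66% of them. Levels are given in FPKM (fragments per kilobase of transcript, scaled to sequencing depth), which allows genes of different length to be compared. All 10 macrophage markers were above the minimum for testing, with summed FPKM of 6615 to 7394 in control, 7240.2 to 7995 in BMC and 7430 to 7679 in BMC+LIPUS; Cd14, Spi1 and Lyz2 were called higher and Ptprc and Cd68 lower in BMC. Of 10 osteoclast markers 4 were above it and 1, Calcr, was at 0, 3 of them (Acp5, Ocstamp and Nfatc1) were called higher in BMC, and their sum was 24.7 to 27.8 FPKM in control, 29.1 to 34.7 in BMC and 36.7 to 40.04 in BMC+LIPUS. The calls of Ocstamp and Nfatc1 were each lost in 5 of 6 fits that left out a library, both without control 1, control 2, control 3 or BMC 2, Ocstamp also without BMC 1 and Nfatc1 without BMC 3 (edgeR adjusted p = 0.0734 to 0.238 and 0.0677 to 0.202), and Nfatc1 had a log2 change of 0.01 in the fit with the osmotic covariate, a score of 4 genes. Of 10 fibroblast, stromal and osteoblast markers 1 was above it and 5 were at 0, with sums of 0.8 to 1.01, 1.44 to 1.72 and 1.78 to 1.8 FPKM in the 3 groups, and the 1, Pdgfrb, was called higher in BMC (log2 change 1.04). Of 8 skeletal muscle and 6 neuron markers none was above it, 5 and 3 were at 0, and no sum passed 0.18 FPKM. The mean log2 CPM (counts scaled to a common library size) of Slc5a3, Akr1b3, Slc6a12 and Hspa4l, genes of the response to hyperosmotic medium, ran from 6.46 to 6.79 in control, 6.92 to 8.27 in BMC and 7.31 to 8.68 in BMC+LIPUS. Lyz2 lost its call without control 1, control 2, BMC 1 or BMC 3 (log2 change 0.12 to 0.16, edgeR adjusted p = 0.107 to 0.166). It was not called in BMC+LIPUS against control (0.12, adjusted p = 0.102). With this osmotic score as a covariate Ptprc and Cd68 lost their calls in BMC (adjusted p = 0.0932 and 0.131). The osteoclast sums, the low fibroblast, stromal and osteoblast sums, the macrophage markers named above, Lyz2 less firmly, and the osmotic score moved with the groups. Their part in the results below was not tested. A fit with the score as a covariate was run as an alternative. Every control library had a lower score than every membrane library. In comparisons with control that fit therefore cannot tell the score from the membrane, and a call lost there does not separate them. In RNA from whole cultures, fewer cells of a type and less RNA per cell cannot be told apart.

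The level of the 38 genes spanned more than 3 orders of magnitude. Pkm, pyruvate kinase, averaged 1594 FPKM over the 9 libraries, followed by the aldolase Aldoa with 526, the lactate dehydrogenase Ldha with 478 and the triose-phosphate isomerase Tpi1 with 258 FPKM. Pkm, Aldoa and Ldha held 68.4% to 71.9% of the members' summed FPKM in a library. Genes entered the test when their 9 libraries averaged 0.5 FPKM or more, and 33 of the 38 members passed, as did 12012 genes in all. Pdk2 was the lowest to pass, with a mean of 0.834 FPKM, and Pfkfb1 the highest that did not, with a mean of 0.306 FPKM and 13 to 25 counts a library. Ldhb, the second common lactate dehydrogenase subunit, Pdk4, a pyruvate dehydrogenase kinase, and Fbp1, the gluconeogenic fructose bisphosphatase, had no count in any library. Such a count allows at most 0.0235 CPM over the 127721224 counts of the 9 libraries (3 counts, counting error only). Pygl, the liver glycogen phosphorylase, had 1 count in all.

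**Figure D1:**
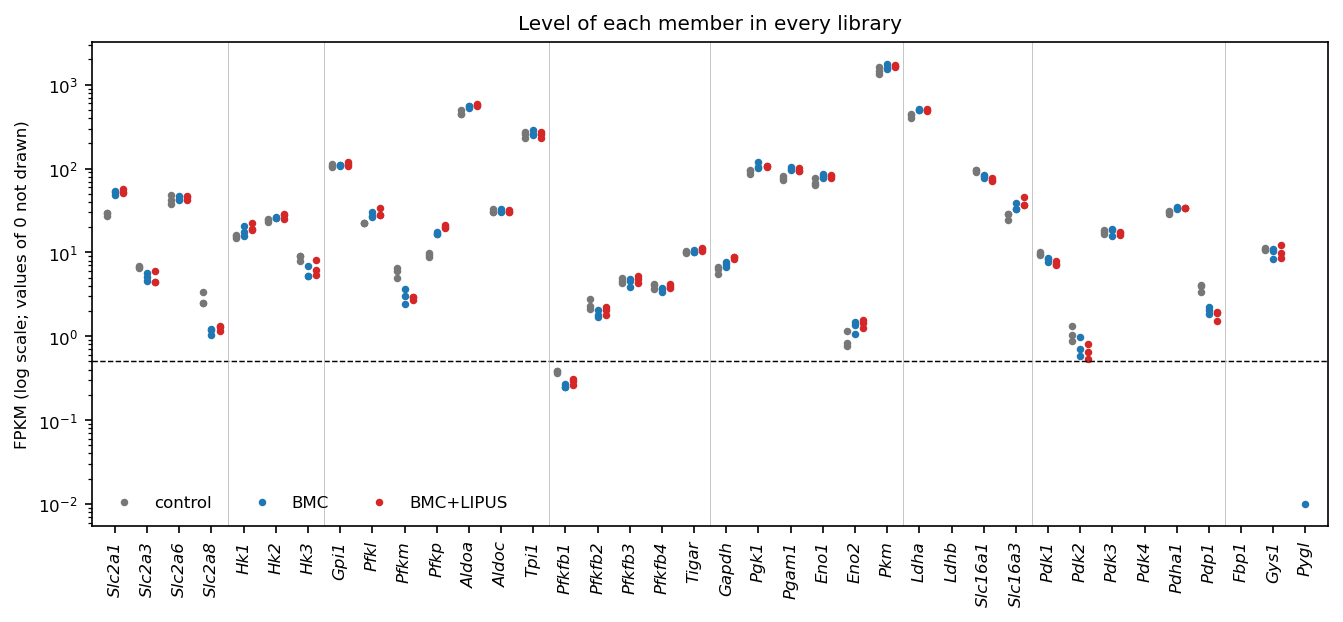
FPKM of the 38 genes in each of the 9 libraries, on a log scale, ordered by step from glucose transport to glycogen; each point is a library and the dashed line marks the minimum of 0.5 FPKM. Pkm lies at the top and Pfkfb1 just below the line, and values of 0 (Ldhb, Pdk4, Fbp1 and all but 1 library of Pygl) are not drawn.

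Setting BMC beside control addresses the effect of the membrane alone. The glucose transporter Slc2a1, the platelet and liver forms of phosphofructokinase, all 6 genes of lower glycolysis and the lactate exporter Slc16a3 were higher in BMC, whereas the muscle form of phosphofructokinase, the intracellular transporter Slc2a8 and the pyruvate dehydrogenase phosphatase Pdp1 were lower. By edgeR's quasi-likelihood test, with p-values adjusted over all genes tested and a gene called at an adjusted p under 0.05, 22 of the 33 tested members were called, 15 higher and 7 lower. That is 66.7% of the members, 45.5% higher and 21.2% lower, where 35.9% of all genes tested were called, 17.2% higher and 18.8% lower. Scaling to library totals in place of TMM gave 10 higher and 8 lower members and, over all genes, 1459 higher and 2762 lower in place of 2065 and 2253. The groups did not overlap on the TMM-scaled CPM in 21 members (63.6%), against 47.6% of all genes. The median log2 change was 0.10 over the members and 0.01 over all genes, and the median of its absolute size 0.28 and 0.22. Without control library 1, and also without BMC library 3 (control 1 and BMC 3 hereafter), 14 members were called. In each of these fits that is 42.4% of the members, where 29.1% of all genes were called. Of the 22 calls, 13 held in every alternative that could test them, namely Slc2a1, Slc2a8, Pfkl, Pfkm, Pfkp, Aldoa, Pgk1, Pgam1, Eno1, Ldha, Slc16a3, Pdha1 and Pdp1.

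**Figure D2:**
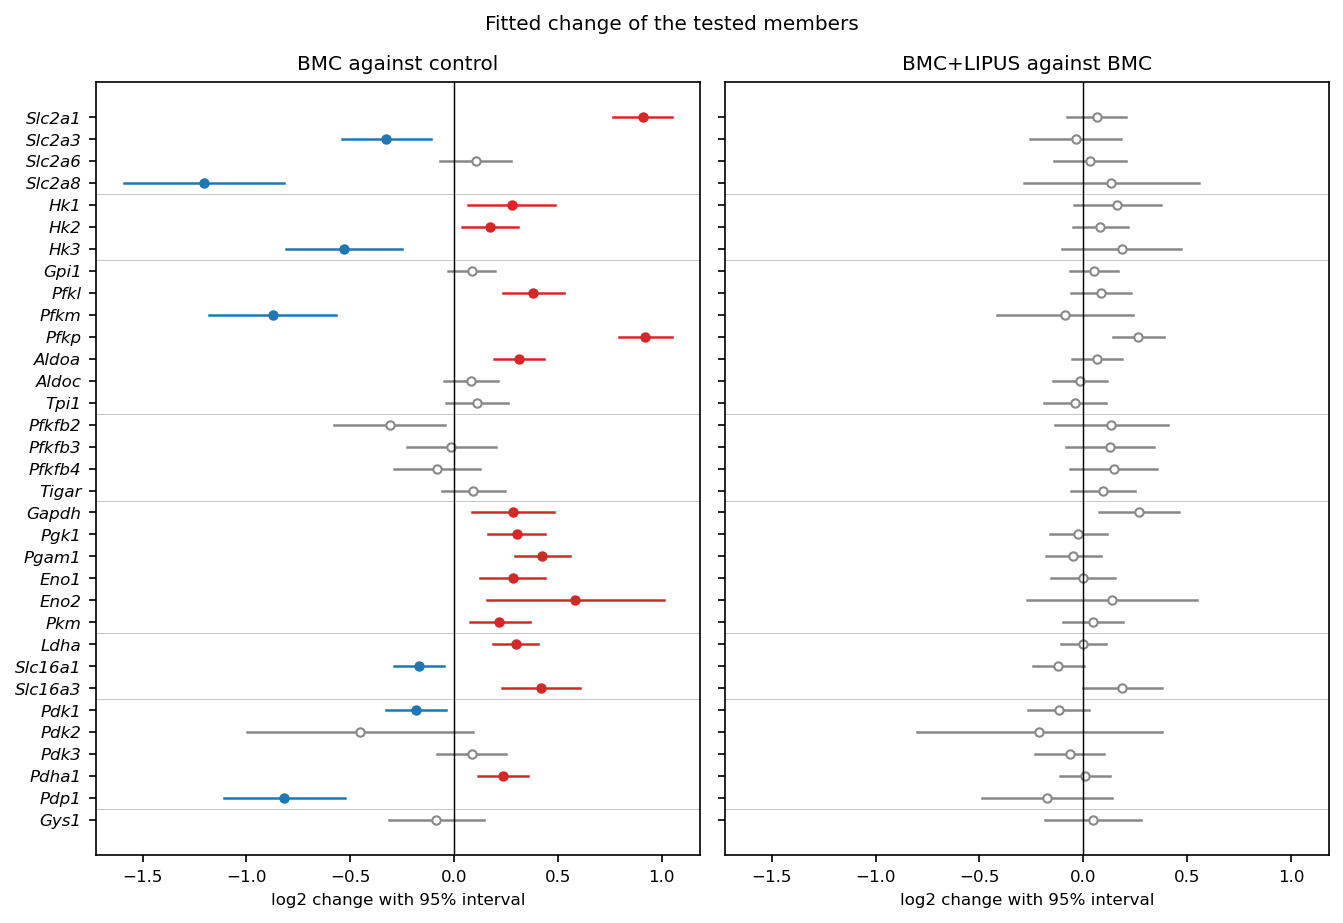
Log2 change with its 95% interval for the 33 tested members, BMC against control on the left and BMC+LIPUS against BMC on the right; filled red points were called higher, filled blue points lower and open grey points were not called. On the left 15 members were called higher and 7 lower, and on the right none was called.

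The promoters of 3 of the genes that were higher in BMC, and of Pfkp, the member with the smallest adjusted p, are shown, since many glycolytic genes are known HIF-1 targets. RefSeq promoter windows of build GRCm38.p6, from 250 bases before to 50 bases after a start site, were found for 36 of the 38 members, in 55 windows. ACGTG, searched on both strands (CACGT on the other), was in the promoter of 19 of the 36 members (52.8%), beside 21.8% of all 27025 genes with a window. A gene counted if any of its windows matched, so genes with more windows had more room for a match. Counted by window, ACGTG was in 23 of the members' 55 (41.8%), beside 19.6% of all 32851. It was in 10 of the 15 with a window that were called higher, 3 of 5 called lower, 5 of 11 not called and 1 of 5 not tested. CACGTG, the E-box, contains ACGTG on both strands and was in 6 of 36 members (16.7%), beside 8.09% of all genes. It was in 1 of the 15 called higher and 2 of the 5 called lower. A match is only those letters in that window. The windows are chr4:119108495-119108794 on the plus strand for Slc2a1, chr11:120948817-120949116 on the plus strand for Slc16a3, chr7:46845554-46845853 on the plus strand for Ldha, the first of its 2 windows, and chr13:6648722-6649021 on the minus strand for Pfkp. They are written 5′ to 3′ with each match, on either strand, in capitals.
Slc2a1: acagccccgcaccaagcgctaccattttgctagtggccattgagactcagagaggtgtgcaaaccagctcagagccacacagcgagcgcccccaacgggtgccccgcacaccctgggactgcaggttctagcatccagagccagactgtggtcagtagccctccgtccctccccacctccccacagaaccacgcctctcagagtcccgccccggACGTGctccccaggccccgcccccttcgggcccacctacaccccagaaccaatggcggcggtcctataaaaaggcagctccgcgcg
Slc16a3: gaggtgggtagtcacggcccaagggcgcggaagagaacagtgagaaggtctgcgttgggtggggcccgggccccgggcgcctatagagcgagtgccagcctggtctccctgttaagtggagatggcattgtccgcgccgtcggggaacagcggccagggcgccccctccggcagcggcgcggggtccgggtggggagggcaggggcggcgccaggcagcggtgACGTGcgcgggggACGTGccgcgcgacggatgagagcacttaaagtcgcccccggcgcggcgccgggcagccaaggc
Ldha: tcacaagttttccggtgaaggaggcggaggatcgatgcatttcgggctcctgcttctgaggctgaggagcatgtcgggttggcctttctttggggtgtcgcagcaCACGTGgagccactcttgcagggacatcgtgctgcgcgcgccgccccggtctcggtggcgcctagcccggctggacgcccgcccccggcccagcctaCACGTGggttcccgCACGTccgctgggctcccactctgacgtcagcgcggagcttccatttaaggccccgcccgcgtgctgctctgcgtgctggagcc
Pfkp: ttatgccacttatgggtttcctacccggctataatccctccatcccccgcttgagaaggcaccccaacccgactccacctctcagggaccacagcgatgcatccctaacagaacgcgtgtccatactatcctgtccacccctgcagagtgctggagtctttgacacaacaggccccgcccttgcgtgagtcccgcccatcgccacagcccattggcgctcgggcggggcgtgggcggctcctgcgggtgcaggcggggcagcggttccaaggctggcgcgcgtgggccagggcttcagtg
Slc2a1 holds 1 match, Slc16a3 2 and this Ldha window 5 counted on both strands, of which 4 lie in CACGTG. The second Ldha window, which is not shown, holds 0. The Pfkp window holds no ACGTG on either strand. GCGTG, which differs from it in the first letter, was not searched and is present in that window. Whether a match bears on a change in level was not tested.

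Among the glucose transporters, Slc2a1 (GLUT1, the main transporter of growing and activated cells) rose, while Slc2a3 (GLUT3, a high-affinity transporter) and Slc2a8 (GLUT8, an intracellular transporter) fell. Slc2a1 stood at 26.9, 29.1 and 29.8 FPKM in the control libraries, 52.3, 48.4 and 53.3 in the BMC libraries and 52.4, 51.5 and 56.4 in those with LIPUS. Every library on the membrane lay above every control, and the fitted level in BMC was 1.88-fold higher than control (log2 change 0.91, SE 0.07, edgeR adjusted p = 5.69e-08). Slc2a8 measured 2.46, 2.5 and 3.41 FPKM in the control libraries, 1.2, 1.21 and 1.04 in the BMC libraries and 1.28, 1.15 and 1.34 in those with LIPUS. The controls were all higher, with control 3 the highest, and BMC was 2.31-fold lower (log2 change -1.21, SE 0.18, edgeR adjusted p = 8.97e-05). Slc2a3 had 6.84, 6.68 and 6.53 FPKM in the control libraries, 5.12, 5.63 and 4.54 in the BMC libraries and 4.46, 5.97 and 4.46 in those with LIPUS, again without overlap, and BMC was 1.25-fold lower (log2 change -0.33, SE 0.10, edgeR adjusted p = 0.0191). That call was lost without control 1 (log2 change -0.31, edgeR adjusted p = 0.0602), without BMC 3 (log2 change -0.26, adjusted p = 0.0836) and with the osmotic score as a covariate (log2 change -0.15, adjusted p = 0.353). Slc2a6 (GLUT6, found on lysosomes) had 42.3, 38.2 and 48.5 FPKM in the control libraries, 42.9, 42.2 and 47.4 in the BMC libraries and 45.7, 46.8 and 42.3 in those with LIPUS; the groups overlapped and the test was missed (log2 change 0.10, SE 0.08, edgeR adjusted p = 0.351).

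Summed over these 4 transporters, the level was 78.5, 76.5 and 88.2 FPKM in control, 101, 97.4 and 106 in BMC and 104, 105 and 105 with LIPUS. Slc2a1 held a larger part of that sum in BMC. Its share of the summed FPKM was 34.2%, 38.1% and 33.8% in control, 51.5%, 49.7% and 50.2% in BMC and 50.4%, 48.9% and 53.9% with LIPUS. In control Slc2a6 was the most abundant transporter in every library, and on the membrane Slc2a1 was, in all 6 libraries. The share of Slc2a8 went from 3.42% ± 0.391 (SD, n = 3) to 1.13% ± 0.138 in BMC. All 4 shares were without overlap between BMC and control (exact two-sided permutation test, p = 0.1 each, the smallest that 3 against 3 can give).

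The hexokinases, which trap glucose as its phosphate, divided in the same comparison. Hk3, the form known from blood cells, measured 7.98, 9.07 and 8.94 FPKM in the control libraries, 6.79, 5.21 and 5.22 in the BMC libraries and 5.31, 8.07 and 6.23 in those with LIPUS. It was 1.44-fold lower in BMC (log2 change -0.53, SE 0.13, edgeR adjusted p = 0.00491), with no overlap against control, and this call was lost with the osmotic score as a covariate (log2 change -0.28, adjusted p = 0.113). Hk1, the widely expressed form, had 15.8, 14.7 and 16.2 FPKM in the control libraries, 15.8, 17.4 and 20.9 in the BMC libraries and 19.2, 18.7 and 22.4 in those with LIPUS, and was called 1.21-fold higher although BMC 1 lay within the range of the controls (log2 change 0.28, SE 0.10, edgeR adjusted p = 0.037). Hk2, the inducible form of muscle and activated cells, had 24.3, 24.9 and 23.03 FPKM in the control libraries, 25.5, 25.7 and 26.7 in the BMC libraries and 25.2, 28.96 and 28.01 in those with LIPUS and was called 1.13-fold higher (log2 change 0.17, SE 0.06, edgeR adjusted p = 0.0426). Both calls were lost under library totals and without any single one of control 1, control 2, control 3, BMC 2 or BMC 3, where the edgeR adjusted p ran from 0.0557 to 0.218 for Hk1 and from 0.0567 to 0.144 for Hk2. With the osmotic score as a covariate the log2 change was 0.01 for Hk1 (edgeR adjusted p = 0.927) and 0.15 for Hk2 (adjusted p = 0.154), and for Hk1 in BMC+LIPUS against control 0.06 (adjusted p = 0.709). Hk3's share of the hexokinase FPKM was 17.9% ± 1.15 in control and 11.6% ± 2.25 in BMC (SD, n = 3, exact permutation p = 0.1), and the shares of Hk1 and Hk2 overlapped between the groups.

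In the phosphofructokinase family Pfkp and Pfkl rose and Pfkm fell. Pfkp, the platelet type, stood at 9.39, 9.84 and 8.93 FPKM in the control libraries, 16.5, 17.7 and 16.8 in the BMC libraries and 19.5, 21.3 and 20.3 in those with LIPUS. The 3 groups were separate and stepped upward, and BMC was 1.89-fold above control (log2 change 0.92, SE 0.06, edgeR adjusted p = 1.35e-08). Pfkm, the muscle type, had 4.92, 6.08 and 6.44 FPKM in the control libraries, 3.66, 3.02 and 2.42 in the BMC libraries and 2.68, 2.93 and 2.94 in those with LIPUS. All controls were above all other libraries, and BMC was 1.83-fold lower (log2 change -0.87, SE 0.14, edgeR adjusted p = 0.000202). Pfkl, the liver type and the most abundant of the family in each library, had 22.3, 22.6 and 22.6 FPKM in the control libraries, 30.3, 27.5 and 26.5 in the BMC libraries and 27.6, 33.4 and 28.1 in those with LIPUS. It was 1.304-fold higher in BMC without overlap (log2 change 0.38, SE 0.07, edgeR adjusted p = 0.000441).

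As a share of the summed phosphofructokinase FPKM, Pfkp took 25.7%, 25.6% and 23.5% in control, 32.8%, 36.8% and 36.7% in BMC and 39.1%, 36.96% and 39.6% with LIPUS. Pfkm took 13.4%, 15.8% and 16.9% in control, 7.26%, 6.27% and 5.29% in BMC and 5.39%, 5.09% and 5.73% with LIPUS. The share of Pfkp was higher and that of Pfkm lower in every membrane library than in any control, and the exact permutation p was 0.1 for both between BMC and control. The ratio of Pfkp to Pfkm FPKM was 1.91, 1.62 and 1.39 in control, 4.52, 5.86 and 6.93 in BMC and 7.27, 7.27 and 6.91 with LIPUS. Pfkl's share, 59.7% ± 1.13 in control and 58.3% ± 1.52 in BMC (SD, n = 3), overlapped between these groups (exact permutation p = 0.3). The family's summed FPKM was 36.6, 38.5 and 38.01 in control and 50.4, 48.2 and 45.7 in BMC. Of the 100-base stretches of Pfkp transcripts, 14.2% are also in a transcript of Pitrm1, which is not a phosphofructokinase, and of Pfkm 7.43% are also in Gm26513 (GENCODE M21 annotation). Pitrm1 was not called between BMC and control (log2 change -0.13, edgeR adjusted p = 0.0816).

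**Figure D3:**
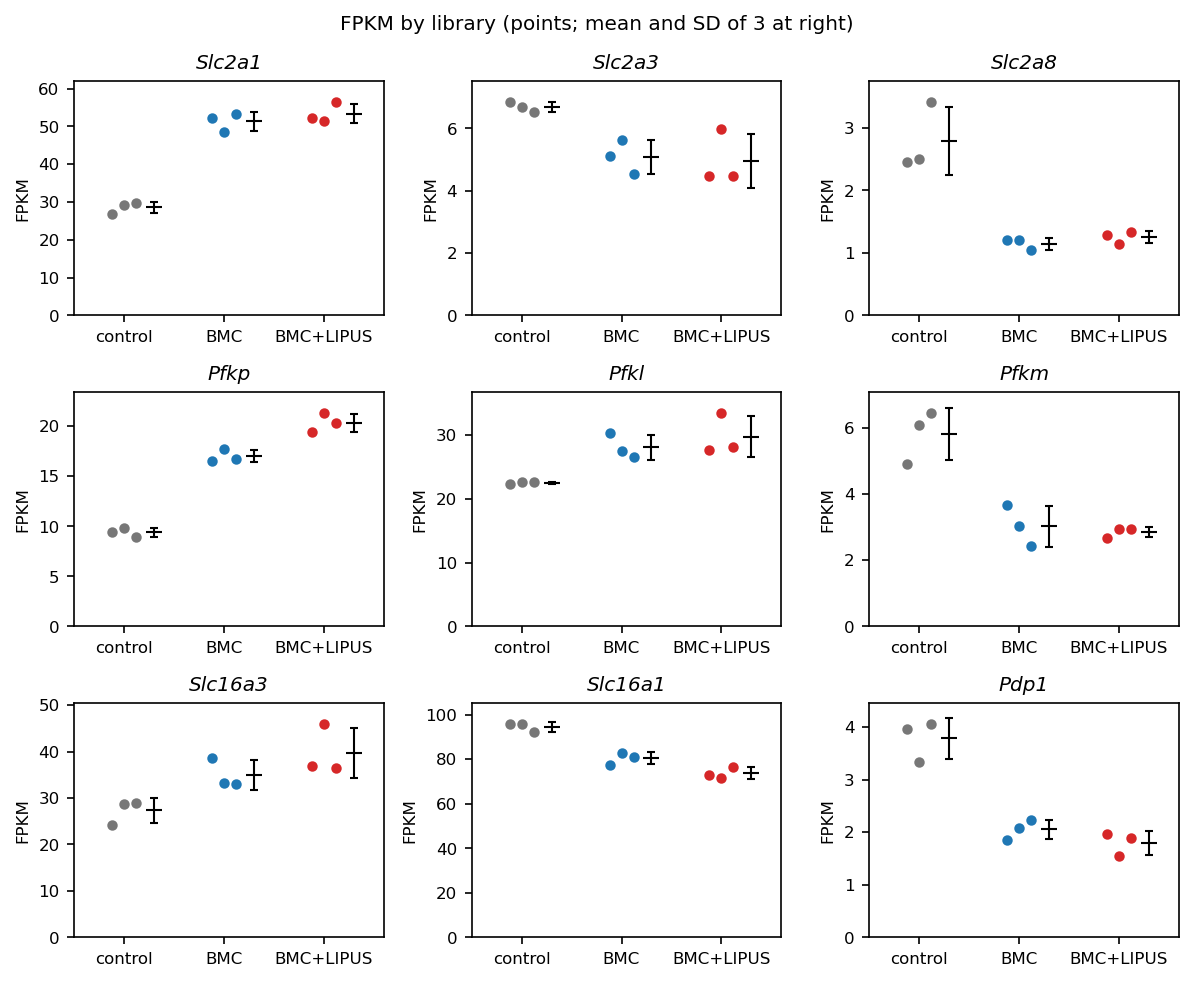
FPKM of 9 members in each library (points), with the mean and SD of the 3 libraries of a group to the right of its points; every axis starts at 0. Slc2a1 and Pfkp are higher and Slc2a8, Pfkm and Pdp1 lower in each membrane library than in each control, and Pfkp and, narrowly, Slc16a1 are also separate between BMC and BMC+LIPUS in FPKM.

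The enzymes that make and break down the small-molecule activator of phosphofructokinase did not pass the test. Pfkfb3, the form with the highest kinase activity, had 4.37, 5.01 and 4.51 FPKM in control, 3.83, 4.58 and 4.78 in BMC and 4.34, 4.82 and 5.21 with LIPUS (log2 change -0.01, edgeR adjusted p = 0.934). Pfkfb4 had 3.69, 4.14 and 4.09 FPKM in control, 3.62, 3.36 and 3.8 in BMC and 3.77, 4.14 and 3.97 with LIPUS (log2 change -0.08, adjusted p = 0.55). Pfkfb2 had 2.78, 2.28 and 2.14 FPKM in control, 1.8, 2.04 and 1.7 in BMC and 1.8, 2.23 and 2.06 with LIPUS, where all BMC libraries were below all controls but the test was missed (log2 change -0.31, adjusted p = 0.0667). Tigar, a phosphatase that breaks it down, had 9.73, 10.3 and 10.1 FPKM in control, 10.04, 10.1 and 10.6 in BMC and 10.4, 11.3 and 11.1 with LIPUS (log2 change 0.09, adjusted p = 0.343). Pfkfb1, below the minimum for testing, had 0.38, 0.38 and 0.36 FPKM in control, 0.25, 0.25 and 0.27 in BMC and 0.31, 0.26 and 0.29 with LIPUS.

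In the rest of upper glycolysis, Aldoa rose and the isomerases and Aldoc did not pass the test. Aldoa had 441, 443 and 496 FPKM in control, 558, 528 and 555 in BMC and 564, 583 and 565 with LIPUS, with the groups in separate ranges, and was 1.24-fold higher in BMC (log2 change 0.31, SE 0.06, edgeR adjusted p = 0.00044). Aldoc, the brain form, had 30.1, 30.1 and 32.7 FPKM in control, 32.98, 30.2 and 30.8 in BMC and 30.5, 32.03 and 30.04 with LIPUS, with overlap (log2 change 0.08, SE 0.06, edgeR adjusted p = 0.334). Aldoa made up 93.7% ± 0.111 of aldolase FPKM in control and 94.6% ± 0.163 in BMC (SD, n = 3), without overlap (exact permutation p = 0.1), a shift of under 1 percentage point. Gpi1, the glucose phosphate isomerase, had 104, 106 and 114 FPKM in control, 112, 109 and 109 in BMC and 114, 118 and 108 with LIPUS (log2 change 0.09, adjusted p = 0.242). Tpi1 had 232, 262 and 271 FPKM in control, 284, 248 and 257 in BMC and 257, 275 and 234 with LIPUS (log2 change 0.11, adjusted p = 0.243). Both overlapped between BMC and control.

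Every one of the 6 members of lower glycolysis was called higher in BMC, by 1.16-fold to 1.498-fold. Pgam1, the phosphoglycerate mutase, had 73.9, 76.6 and 81.3 FPKM in the control libraries, 103, 95.5 and 98.7 in the BMC libraries and 93.4, 92.7 and 100.3 in those with LIPUS. No membrane library reached down to the controls, and BMC was 1.34-fold higher (log2 change 0.42, SE 0.06, edgeR adjusted p = 7.31e-05). Pgk1, the phosphoglycerate kinase that yields the pathway's first ATP, had 86.5, 93.6 and 96.7 FPKM in control, 119, 103 and 105 in BMC and 106, 106 and 108 with LIPUS and was 1.23-fold higher, without overlap (log2 change 0.30, SE 0.06, edgeR adjusted p = 0.00169). Eno1, the common enolase, had 64.2, 67.01 and 77.97 FPKM in control, 81.6, 76.5 and 85.3 in BMC and 77.3, 81.6 and 83.3 with LIPUS; control 3 reached into the BMC range in FPKM, and BMC was 1.22-fold higher (log2 change 0.28, SE 0.07, edgeR adjusted p = 0.00685). Eno2, the neuronal enolase, was low, with 0.76, 0.82 and 1.15 FPKM in control, 1.49, 1.06 and 1.36 in BMC and 1.56, 1.26 and 1.44 with LIPUS, and control 3 again overlapped BMC (log2 change 0.58, SE 0.20, edgeR adjusted p = 0.0325). Pkm had 1448, 1350.2 and 1606 FPKM in control, 1541, 1599 and 1762 in BMC and 1632, 1689.6 and 1718 with LIPUS, with control 3 inside the BMC range, and was 1.16-fold higher (log2 change 0.22, SE 0.07, edgeR adjusted p = 0.0199). Gapdh, the glyceraldehyde phosphate dehydrogenase, was listed at only 6.31, 5.48 and 6.76 FPKM in control, 6.67, 7.31 and 7.59 in BMC and 8.69, 8.81 and 8.35 with LIPUS, where control 3 passed BMC 1, and was 1.22-fold higher (log2 change 0.28, SE 0.09, edgeR adjusted p = 0.0245).

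The calls of Gapdh, Eno2 and Pkm were lost under library totals (edgeR adjusted p = 0.0736, 0.055 and 0.0578) and without single libraries. Gapdh lost it without control 1, control 2, BMC 2 or BMC 3 (log2 change 0.20 to 0.30, adjusted p = 0.0511 to 0.131), Eno2 without control 1, control 2, BMC 1 or BMC 3 (log2 change 0.47 to 0.54, adjusted p = 0.081 to 0.128), and Pkm without control 1, control 2 or BMC 3 (log2 change 0.15 to 0.21, adjusted p = 0.0707 to 0.114). With the osmotic covariate all 3 were lost too (log2 change 0.21, 0.53 and 0.11, adjusted p = 0.201, 0.114 and 0.247), and Tpi1 was called higher (0.22, adjusted p = 0.0209). Several genes of this group also have copies in the genome. In the GENCODE M21 transcripts, 53.1% of the 100-base stretches of Gapdh are found in at least 1 of 86 other genes, 67% of those of Pgk1 with other genes, chiefly Pgk1-rs7, 39.7% of those of Pgam1 with Pgam1-ps2 among others, and 39.5% of those of Eno1, chiefly with Eno1b. Reads of such stretches may be split between copies or left uncounted, so the levels of these 4 genes are uncertain. Eno1b, the copy of Eno1, was listed at 200.2 ± 19.4, 228 ± 9.35 and 232 ± 10.98 FPKM (SD, n = 3), above Eno1 itself, and was also higher in BMC (log2 change 0.25, edgeR adjusted p = 0.0091). Adding the named copies to their genes left 22 members called.

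Of the lactate genes, Ldha and the exporter Slc16a3 rose and the transporter Slc16a1 fell. Ldha had 406, 431 and 448 FPKM in the control libraries, 509.8, 496 and 503 in the BMC libraries and 500.5, 512 and 491 in those with LIPUS. All controls lay below all other libraries, and BMC was 1.23-fold higher (log2 change 0.30, SE 0.05, edgeR adjusted p = 0.000289). With no Ldhb count, Ldha held all lactate dehydrogenase FPKM in each library. Slc16a3 (MCT4, the lactate exporter of glycolytic cells) had 24.2, 28.8 and 28.95 FPKM in the control libraries, 38.6, 33.2 and 33.04 in the BMC libraries and 36.8, 45.9 and 36.4 in those with LIPUS. It was 1.34-fold higher in BMC without overlap (log2 change 0.42, SE 0.09, edgeR adjusted p = 0.00174). Slc16a1 (MCT1, which moves lactate either way) had 95.7, 95.6 and 92.1 FPKM in the control libraries, 77.4, 82.96 and 80.9 in the BMC libraries and 73.1, 71.4 and 76.7 in those with LIPUS. It was 1.12-fold lower in BMC without overlap (log2 change -0.17, SE 0.06, edgeR adjusted p = 0.0306), a call lost without control 1, control 2, BMC 1 or BMC 3 (log2 change -0.13 to -0.18, adjusted p = 0.0536 to 0.122). Slc16a3's share of the pair's FPKM was 20.2%, 23.2% and 23.9% in control, 33.3%, 28.6% and 28.99% in BMC and 33.5%, 39.1% and 32.2% with LIPUS. Its mean was 7.86 percentage points higher in BMC than in control (exact permutation p = 0.1), and the pair's summed FPKM was 120, 124 and 121 in control and 116, 116 and 114 in BMC.

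At the entry of pyruvate into the mitochondria, Pdha1 rose and Pdk1 and Pdp1, the phosphatase that reactivates pyruvate dehydrogenase, fell. Pdp1 had 3.97, 3.33 and 4.05 FPKM in the control libraries, 1.86, 2.07 and 2.23 in the BMC libraries and 1.97, 1.54 and 1.89 in those with LIPUS. The controls were all above the membrane libraries, and BMC was 1.76-fold lower (log2 change -0.82, SE 0.14, edgeR adjusted p = 0.000234). Pdha1, the catalytic subunit that is switched off by phosphorylation, had 30.3, 31.5 and 28.4 FPKM in control, 34.01, 34.6 and 33.2 in BMC and 33.99, 34.1 and 33.9 with LIPUS and was 1.18-fold higher without overlap (log2 change 0.24, SE 0.06, edgeR adjusted p = 0.00386). Pdk1, one of the kinases that switch it off, had 9.59, 10.2 and 9.25 FPKM in control, 8.26, 8.58 and 7.64 in BMC and 7.36, 8 and 7.11 with LIPUS and was 1.13-fold lower without overlap (log2 change -0.18, SE 0.07, edgeR adjusted p = 0.0476). That call was lost by DESeq2 and without control 1, control 2, BMC 1 or BMC 3 (log2 change -0.14 to -0.19, edgeR adjusted p = 0.0877 to 0.18), and with the osmotic covariate (-0.10, adjusted p = 0.424). Pdk3, the most abundant of these kinases, had 18.3, 17.4 and 16.8 FPKM in control, 18.5, 18.8 and 15.8 in BMC and 17.3, 16.2 and 17.1 with LIPUS and missed the test (log2 change 0.08, SE 0.08, edgeR adjusted p = 0.432). Pdk2 had 1.04, 1.33 and 0.88 FPKM in control, 0.99, 0.58 and 0.71 in BMC and 0.54, 0.8 and 0.64 with LIPUS, with overlap between BMC and control (log2 change -0.45, SE 0.26, edgeR adjusted p = 0.188). The share of Pdk3 in the kinases' FPKM was 61.9% ± 1.57 in control and 66.5% ± 0.891 in BMC, that of Pdk1 34.3% ± 1.03 and 30.7% ± 0.909 (SD, n = 3), both without overlap (exact permutation p = 0.1). Gys1, the muscle-type glycogen synthase, had 10.8, 11.1 and 11.3 FPKM in control, 11.1, 10.4 and 8.39 in BMC and 9.89, 12.3 and 8.58 with LIPUS and missed the test (log2 change -0.09, SE 0.11, edgeR adjusted p = 0.57).

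**Figure D4:**
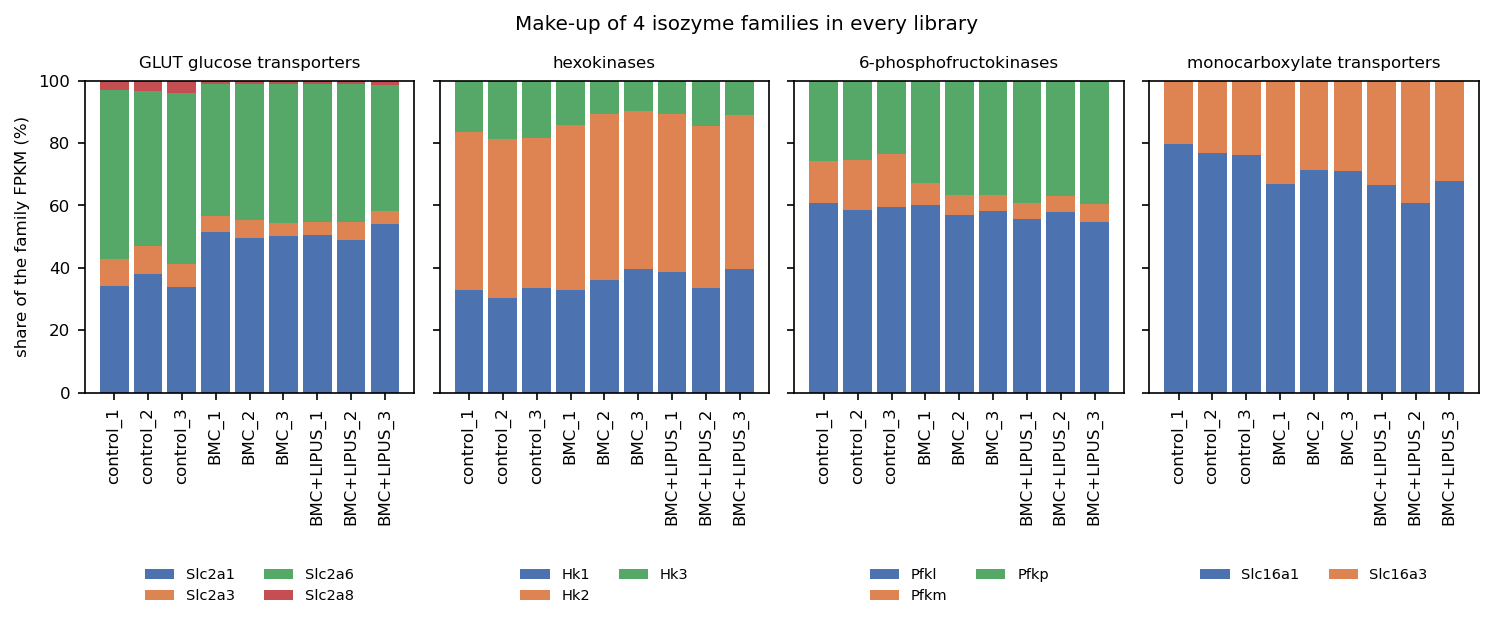
Share of each paralog in the summed FPKM of its family, in percent, for 4 families in each of the 9 libraries (stacked bars, 1 bar per library). Slc2a1, Pfkp and Slc16a3 take a larger share in each membrane library than in each control, while the hexokinase shares of Hk1 and Hk2 overlap.

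Of the 26 paralogs in the 9 families, Ldha, Ldhb and Pdk4 had the same share in each library. Of the other 23 shares, 14 (60.9%) did not overlap between BMC and control, 3 (13%) between BMC+LIPUS and BMC (6 without BMC+LIPUS 2, and 5 without BMC 1, BMC 3 or BMC+LIPUS 3), and 18 (78.3%) between BMC+LIPUS and control. The TMM-scaled CPM did not overlap in 47.6%, 16% and 51.7% of all genes in these comparisons, so the middle count is near that background. In the middle comparison the 3 were Pfkp, which took 35.4% ± 2.28 in BMC and 38.6% ± 1.41 in BMC+LIPUS, and the pair of aldolases (SD, n = 3, exact permutation p = 0.1 each). No exact test here can go below 0.1, and shares within a family depend on each other. The families held members only. The enolase shares were therefore of Eno1 and Eno2 alone and left out Eno1b and Eno3, which averaged 220 and 31.5 FPKM over the 9 libraries.

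The comparison of BMC+LIPUS with BMC asked what ultrasound added on the membrane. None of the 33 tested members was called, where 0.108% of all genes were. At an unadjusted p under 0.05 there were 2 members (6.06%), Pfkp and Gapdh, where 11.5% of all genes were under it. The groups did not overlap on the TMM-scaled CPM in 3 members (9.09%), Aldoa, Pfkp and Gapdh, against 16% of all genes. The median log2 change was 0.046 over the members and -0.002 over all genes. Fitted changes ran from -0.21 for Pdk2 to 0.27 for Gapdh, and 32 of the 33 intervals (95%) lay within a 1.5-fold change in either direction, Pdk2 being the exception with an interval of -0.80 to 0.38.

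Pfkp came closest to a call. Its mean was 17 ± 0.624 FPKM in BMC and 20.4 ± 0.911 in BMC+LIPUS (SD, n = 3), a fitted 1.202-fold difference with every BMC+LIPUS library above every BMC library (log2 change 0.27, 95% interval 0.14 to 0.39, edgeR adjusted p = 0.0894). DESeq2 called it (adjusted p = 0.00948), as did edgeR with no filter on low genes (adjusted p = 0.0163), with the replicate block (adjusted p = 0.0449) and with the osmotic score as a covariate (adjusted p = 0.0132), while over all 17 alternatives the adjusted p ran from 0.00948 to 0.349. Gapdh had a log2 change of 0.27 (95% interval 0.08 to 0.46, edgeR adjusted p = 0.272). The other members with the largest changes on the membrane missed the test here too. The log2 change was 0.06 for Slc2a1 (95% interval -0.08 to 0.20), -0.09 for Pfkm (-0.41 to 0.24), 0.09 for Pfkl (-0.06 to 0.23) and 0.00 for Ldha (-0.11 to 0.11). For Slc16a3 it was 0.19 (0.00 to 0.38; called with the osmotic covariate, adjusted p = 0.0264), for Slc16a1 -0.12 (-0.24 to 0.00) and for Pdp1 -0.17 (-0.49 to 0.14). Slc2a8, a low gene, could be bounded only loosely, at -0.29 to 0.56.

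BMC+LIPUS against control uses the same control libraries as BMC against control, so the values below are set beside those above and are no second test. There 23 of 33 members were called (69.7%, against 43% of all genes), 16 higher (48.5%, against 21.1%) and 7 lower (21.2%, against 21.9%). The groups did not overlap in 24 members (72.7%), against 51.7% of all genes. Pfkp was 2.28-fold higher (edgeR adjusted p = 5.57e-10), Slc2a1 1.96-fold (adjusted p = 1.37e-08), Slc16a3 1.52-fold (adjusted p = 4.98e-05) and Gapdh 1.47-fold (adjusted p = 0.000149). Slc2a8 was 2.1-fold lower (adjusted p = 0.000169), Pdp1 1.99-fold (adjusted p = 3.05e-05) and Pfkm 1.95-fold (adjusted p = 6.36e-05). Tigar was the member called here and not in BMC against control, 1.14-fold higher (adjusted p = 0.047), and 14 of 17 alternatives lost that call, among them the fits without control 1, control 2, control 3, BMC+LIPUS 2 or BMC+LIPUS 3 (log2 change 0.16 to 0.20, adjusted p = 0.0737 to 0.154). Hk3, called 1.27-fold lower (adjusted p = 0.0424), overlapped the controls in BMC+LIPUS 2 and lost its call without control 2, control 3, BMC+LIPUS 1 or BMC+LIPUS 3 (log2 change -0.21 to -0.33, adjusted p = 0.0986 to 0.225). Slc2a3 (1.29-fold lower, adjusted p = 0.00836) lost its call without BMC+LIPUS 1 (log2 change -0.29, adjusted p = 0.0549). With the osmotic covariate 15 members were called (45.5%, against 23.5% of all genes), Slc2a3, Hk1, Hk2, Hk3, Eno1, Eno2, Pkm, Pdk1, Pdha1 and Tigar being lost (adjusted p = 0.0516 to 0.923) and Tpi1 and Gys1 gained.

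In 4 further lists of sugar metabolism the counts of called genes are read against the 17.2% of all genes called higher and 18.8% called lower in BMC. Of 11 tested other genes of glucose uptake, glycolysis and lactate, 1 was called higher and 5 lower (2 lower without BMC 3). The higher one was the enolase relative Eno4 (log2 change 1.25, from 0.68 ± 0.217 to 1.54 ± 0.5701 FPKM, SD, n = 3), a call lost without control 2 (log2 change 1.099, edgeR adjusted p = 0.0509). The lower ones included the urate and sugar transporter Slc2a9 (log2 change -0.54), the phosphoglycolate phosphatase Pgp (-0.34) and the ADP-dependent glucokinase Adpgk (-0.25). In the pentose phosphate pathway, which branches off after hexokinase, 0 of 10 were higher and 3 lower, H6pd (log2 change -0.46), Rpia (-0.26) and Taldo1 (-0.21). Of 17 glycogen genes 1 was higher, the branching enzyme Gbe1 (log2 change 0.46), and 5 lower (8 without control 3), among them the brain-type phosphorylase Pygb at 14.8 ± 0.322 FPKM in control and 8.89 ± 0.473 in BMC (SD, n = 3; log2 change -0.68, edgeR adjusted p = 1.24e-06), the phosphorylase kinase subunit Phka2 (-0.65) and the glycogenin Gyg (-0.50). Of 8 gluconeogenesis and fructose genes 1 was higher, the aldose reductase Akr1b3, which is part of the osmotic score, and 2 lower, the sorbitol dehydrogenase Sord (log2 change -0.44) and the glucose phosphate translocator Slc37a4 (-0.47). Single libraries decided 4 of these calls, with an edgeR adjusted p of 0.0701 for Adpgk without BMC 3 (log2 change -0.17), of 0.0507 and 0.083 for Rpia without control 3 and BMC 2 (-0.22 and -0.20), of 0.0642 and 0.0684 for Taldo1 without BMC 2 and BMC 3 (-0.19 and -0.18), and of 0.0528 to 0.141 for Akr1b3 without control 1, control 2, control 3 or BMC 3 (0.54 to 1.11). With the osmotic score as a covariate the edgeR adjusted p was 0.328 for Eno4, 0.224 for Adpgk, 0.191 for Taldo1, 0.397 for Akr1b3 and 0.0501 for Slc37a4.

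Genes of branches that lead glycolytic intermediates elsewhere were called in both directions, as were all genes (17.2% higher and 18.8% lower). Of 12 hexosamine, serine and glycerol genes 5 were higher and 1 lower in BMC. Glycerol kinase Gk went from 10.5 ± 0.679 to 15.3 ± 0.594 FPKM (SD, n = 3; log2 change 0.60, edgeR adjusted p = 4.91e-06), the hexosamine entry enzyme Gfpt1 from 8.97 ± 1.15 to 12.5 ± 0.383 (log2 change 0.55) and the serine enzyme Psph changed by 0.46 (log2), while the cytosolic hydroxymethyltransferase Shmt1 was lower (-0.68). Of 9 genes of pyruvate entry into mitochondria 2 were higher, Dld (log2 change 0.27) and the pyruvate carrier Mpc2 (0.26), and 1 lower, the phosphatase regulatory subunit Pdpr (-0.54). Of 7 NADH shuttle enzymes 0 were higher and 1 was lower, the aspartate aminotransferase Got2 (-0.19). The call of Mpc2 was lost without control 1, control 2 or BMC 1 (log2 change 0.23 to 0.24, edgeR adjusted p = 0.0633 to 0.0773), and that of Got2 without control 3, BMC 1 or BMC 3 (log2 change -0.12 to -0.19, adjusted p = 0.0601 to 0.0923). With the osmotic covariate Mpc2 was not called either (0.23, adjusted p = 0.0974).

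Among 19 tested regulators of glycolytic transcription 4 were called higher and 2 lower, where 17.2% and 18.8% of all genes were. Hif1a, the alpha subunit of HIF-1, had 35.4, 37.8 and 33.4 FPKM in control, 45.1, 51.6 and 54.99 in BMC and 52.7, 41.4 and 57.2 with LIPUS, all membrane libraries above all controls, and was 1.49-fold higher in BMC (log2 change 0.57, SE 0.11, edgeR adjusted p = 0.000494). The AMP-activated kinase subunit Prkaa1 (log2 change 0.33) and Mlx (0.25) were also higher, and Usf1 (-0.51), which binds E-boxes, and Rptor (-0.21) were lower. The call of Rptor was lost without any single one of control 1, control 2, control 3, BMC 1 or BMC 2 (log2 change -0.16 to -0.24, edgeR adjusted p = 0.0539 to 0.143), and that of Mlx with the osmotic covariate (0.18, adjusted p = 0.144). Hif1a kept its call in BMC in all 17 alternatives (log2 change 0.297 to 0.657). In BMC+LIPUS against control its call (0.58, edgeR adjusted p = 0.000334) was lost with the osmotic covariate (0.16, adjusted p = 0.231). Of 20 tested hypoxia target genes outside glycolysis 13 were called higher and 1 lower, beside the same shares of all genes. Their median log2 change was 0.25, beside 0.01 over all genes. Vegfa, an angiogenic factor, went from 3.29 ± 0.1498 to 5.603 ± 0.455 FPKM (SD, n = 3; 1.78-fold, edgeR adjusted p = 5.19e-06), the collagen prolyl hydroxylase P4ha1 from 27.5 ± 1.84 to 38.5 ± 2.46 (1.46-fold) and the transcription factor Bhlhe40 from 2.41 ± 0.343 to 5.09 ± 0.511 (2.202-fold). Ndrg1 was the lower one, at 2.35 ± 0.17 FPKM in control and 1.08 ± 0.211 in BMC (2.08-fold). Between BMC+LIPUS and BMC no gene of these lists was called with the minimum of 0.5 FPKM. With no filter on low genes, those called included Akr1b3 (log2 change 0.43, edgeR adjusted p = 3.22e-07) and 2 lower hypoxia targets, among them Ndrg1 (-0.66, adjusted p = 0.0226). The osteoclast marker Nfatc1 was also called higher there (0.32, adjusted p = 0.00168). In the main fit the edgeR adjusted p was 0.641 for Akr1b3, 0.197 for Ndrg1 and 0.221 for Nfatc1, at nearly the same log2 changes. No other alternative called Akr1b3, Ndrg1 or Nfatc1 in this comparison.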

How the data were processed

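RNA-seq libraries of RAW264.7 cells were grouped by the labels' treatment into control, BMC and BMC+LIPUS, 3 each. Per the submitters' processing notes, DESeq2, HTSeq 0.6.1, HISAT2 2.0.1 and cutadapt 1.9.1 were used with build GRCm39; the sources used here give neither annotation nor strand setting. Reads of overlapping or antisense genes therefore cannot be told apart. The deposited table holds whole-number read counts that were not normalized, and FPKM values that the authors rounded to 2 decimals. Its 2639 unnamed lines of 56691 (0.0889% to 0.0976% of counts) were left out, for 77 names on several lines the line with the most counts was kept, and 6 columns of 3 libraries without a label were not used.

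Counts were tested in R 4.3.3 with edgeR 4.0.16 (TMM, glmQLFit and glmQLFTest over all 9 libraries, 12012 genes that averaged 0.5 FPKM or more, Benjamini-Hochberg adjustment over them). Standard errors (SE) came from the F statistic. Shares of paralogs were FPKM over the family's sum, with exact permutation tests. The median SE of a member's log2 change was 0.074 at 12675541 to 16574453 counts a library. Pairs of libraries within a group differed by 3.55 to 10.5 times the sampling variance, so none was a near copy. The scripts were tested on simulated counts. Members, lists and the osmotic score were chosen with earlier results of these data known. All 38 members are accounted for. From each other list at most 3 called genes with the smallest p in each direction in BMC against control are named, and Calcr and Eno3 besides. Of 230 list symbols 229 were found. Shared stretches were counted in GENCODE M21 transcripts, another build than the counts. Alternatives were DESeq2 1.42.0, limma 3.58.1 on log2(FPKM + 1) and log2(FPKM + 0.1), library totals, RLE factors, no filter, a minimum of 5 FPKM, the 2 groups alone, the replicate block, the osmotic score as covariate, each library left out, and, chosen after seeing the data, named gene copies added.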

Additional observations from a re-analysis of the deposited data

How the results depend on the processing

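The number of members called in BMC against control (22, of which 15 higher and 7 lower) was 21 with DESeq2, 22 with RLE factors, 18 with library totals, 20 with no filter, 17 with limma at either pseudocount and 22 with only the 2 groups. It was 16 at a minimum of 5 FPKM, where 25 members were tested, with 4 lower, and 15 with the osmotic score as covariate, with 4 lower. Leaving out each library in turn gave 14 to 21 called, 10 to 14 higher and 4 to 8 lower, with 14 called and 4 lower without control 1 and without BMC 3. Over all genes tested, 34.1% were called with DESeq2, 35.8% with RLE factors, 35.1% with library totals and 19.4% with no filter. The share was 32.3% and 31.8% with limma and 36.1% with only the 2 groups. At a minimum of 5 FPKM 64% of the members and 41.1% of all genes were called, and with the osmotic covariate 45.5% and 25.5%. With a library left out 42.4% to 63.6% of the members and 28.9% to 34% of all genes were called. Of the 22 calls, 14 held in every such fit and 13 in every alternative. In BMC+LIPUS against BMC, where 0 were called, DESeq2 and the fit with no filter each called 1 (higher, Pfkp), and the osmotic covariate called 2 (both higher, Pfkp and Slc16a3). Of all genes 0.733%, 1.03% and 1.84% were called in these fits. In BMC+LIPUS against control (23 called, 7 lower), 4 were lower at a minimum of 5 FPKM. With the osmotic covariate 15 were called (45.5%, beside 23.5% of all genes) and 4 lower. Of the 23 calls 20 held with each library left out. The shares that did not overlap between BMC+LIPUS and BMC numbered 3 to 6 with a library left out. With the osmotic covariate, the log2 change of Akr1b3 was -0.11 for BMC and -0.19 for BMC+LIPUS, each against control (Akr1b3 is part of the score), and in BMC+LIPUS against control that of Hk3 was 0.03 (edgeR adjusted p = 0.923) and that of Gys1 0.37 (adjusted p = 0.0141, from -0.04); the cause was not tested. Of the other values under all alternatives (single genes, shares and lists), 5417 were counted as the same, 182 lost a call, 29 gained one and 131 moved. A gene called neither in the main fit nor in the alternative counted as the same even where its sign changed. A share counted so if it moved by no more than the larger SD of its 2 groups, and a list count if it changed little. Library totals in place of TMM moved the median log2 change of all genes from 0.01 to -0.05 in BMC against control. Replicate numbers are shared between groups, but deviations of same-numbered libraries correlated by -0.149 to 0.37, over 0.1 in 3 of 9 pairs, so they were taken to share only a number. With the replicate block 22, 1 (Pfkp, higher, edgeR adjusted p = 0.0449) and 24 members were called in the 3 comparisons, the last with Gpi1 gained (log2 change 0.14, adjusted p = 0.0464). Of all genes 37.4%, 0.425% and 44.2% were called with that block. With 3 libraries a group, no exact test of a share can go below p = 0.1.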

Other observations

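The name Aldoa stands on 2 lines of the deposited table. The line used here held 18369 to 25113 counts a library, and the other held 13, 13 and 15 counts in control, 7, 8 and 3 in BMC and 5, 7 and 3 with LIPUS, fewer in each membrane library than in any control, while the line used here was called higher in BMC. The second line was not tested.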
